A study of Mus musculus with 8 samples.

Results

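The 10 genes described here encode the main cytosolic and mitochondrial heat shock proteins, and they were taken by symbol from a table of 24421 gene rows, in which all 10 were found. They were Hspa1a, Hspa1b and Hspa8 (HSP70 chaperones), Dnajb1 and Hsph1 (their partners), Hsp90aa1 and Hsp90ab1 (HSP90 chaperones), Hspb1 (a small heat shock protein), and Hspd1 and Hspe1 (the mitochondrial chaperonin). All 10 passed the filter on low counts, as did 11797 genes of the table. The cells were KPCY cells, a male mouse line of pancreatic cancer. One stable line carried a lentiviral inhibitor of the microRNA miR-27a-3p (the knockdown, 4 libraries) and the other a scrambled sequence from the same kind of vector (4 libraries). Both lines had been selected with 2 µg/mL puromycin for 7 days and grown in medium with 4.5 g/L glucose and 10% serum, and were lysed for RNA 24 hours after seeding. No heat or other proteotoxic stress is named in the labels. The comparison asks which transcripts differ between cancer cells with and without inhibition of this microRNA. Each group was 1 stable line, so every p-value below measures the spread between cultures or libraries of a line, which may be partly technical, and not between separate transductions.

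Heat shock proteins bind unfolded or folding proteins and keep them from aggregating. HSP70 works in a cycle of ATP binding, hydrolysis and ADP release. J-domain proteins such as Dnajb1 promote the hydrolysis, and exchange factors such as Hsph1 promote the release. HSP90 takes over many partly folded clients, kinases and steroid receptors among them, with the help of cochaperones. The transcription factor HSF1 raises the inducible members when unfolded proteins build up by binding heat shock elements, inverted repeats of the unit GAA in the promoters, while Hspa8 and Hsp90ab1 are the forms that most cells make without stress. Tumour cells of many kinds, pancreatic cancer included, are known to depend on HSF1 and HSP90.

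The library totals ran from 19165513 to 23542275 counts. Levels are CPM, counts scaled to library size with TMM factors of 0.991 to 1.01, given as mean ± SD over n = 4 libraries. Each fold change sets the knockdown against the scrambled line in a quasi-likelihood fit of edgeR, and a gene is called at a Benjamini-Hochberg adjusted p under 0.05. The comparison called 5645 of 11797 tested genes (47.9%), 2841 of them lower (24.1%). Scrambled replicate 2 stood apart from the other libraries. A chi-square of counts gave 5.03 to 5.20 per gene for its pairs with the other scrambled libraries, against 1.79 to 2.31 for their own pairs and 1.72 to 1.93 for pairs of knockdown libraries. It had been singled out because Hspa8 deviates in it. Results that rest on it are given with and without it, and without it 6004 of 11874 genes (50.6%) were called, 3002 of them lower (25.3%). The ductal keratins Krt8, Krt18 and Krt19 were at 3252 ± 211, 2691 ± 160 and 2188 ± 74.4 CPM in the scrambled line. Of 7 ductal markers Epcam was low, at 7.15 ± 1.80 CPM. By edgeR, 4 of the 7 were called higher in the knockdown (Krt18, Krt7, Cdh1 and Muc1 by 5.22%, 24.4%, 17.1% and 33.3%) and Krt19 lower. The groups overlapped for Krt18 (edgeR adjusted p = 0.0335), and its call was lost under 9 of the 19 alternatives of the fit. Fibroblast markers summed to at most 1.43 CPM in any library, with 4 of 8 at 0 in all libraries, and leukocyte markers to at most 4.30 CPM, with 3 of 6 at 0. In bulk RNA, fewer cells of a type and less RNA per cell cannot be told apart.

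The sequences bear on 3 questions, namely what was inhibited, where it could pair with these transcripts, and which promoters carry heat shock elements. The mature microRNA has its seed (bases 2 to 8) in capitals. Its match was looked for in the longest annotated 3′ UTR of each gene. The match is ACTGTGA, with or without its first letter and with or without a following A. Of the 10 genes, 3 held a match of 7 bases, Dnajb1 held a core of 6 bases, 6 held no core and none held the match of 8 bases ACTGTGAA. Among 21020 3′ UTRs, 16.0% held ACTGTGA, 18.4% CTGTGAA and 43.5% the core CTGTGA, so such matches were common. The 3 longer matches are shown with 11 bases on either side, with the match in capitals, and begin at base 138 of the 935 bases of the UTR in Hsp90aa1, base 33 of 453 in Hspd1 and base 534 of 963 in Hsph1.
miR-27a-3p (chr8:84208727-84208747, + strand): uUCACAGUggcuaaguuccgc
Hsp90aa1 3′ UTR: ctacatgtgatACTGTGAtactataggtt
Hspd1 3′ UTR: cttatcaatgaACTGTGAcaggaagctca
Hsph1 3′ UTR: gcgaagcagggCTGTGAActatcaccaca
A match describes letters only, and no binding was measured.

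Promoter windows of 300 bases, from 250 before to 50 after the annotated start, were given by RefSeq on GRCm38.p6 for 7 of the 10 genes (not for Hspa8, Hsp90aa1 and Hsp90ab1). They were searched for pairs of units, GAANNTTC and TTCNNGAA, and for rows of 3 units, GAANNTTCNNGAA and TTCNNGAANNTTC. Each pair reads the same on both strands, each row of 3 is the other's reverse complement, and a row of 3 holds both pairs. Of 32851 windows in the table, 15.1% held a pair and 0.603% a row of 3. Of the 7 genes, 6 held a pair and 3 (Hspd1, Hspe1 and Hsph1) a row of 3. Dnajb1, with 2 windows, held neither. The windows shown are those of Hspb1, whose transcript fell, Hspa1a and Hspa1b, whose near-identity limits their counts, Hspe1, whose window also serves Hspd1 from the other strand, and Hsph1. Capitals mark the matched units with the bases between them.
Hspb1 (chr5:135887669-135887968, + strand): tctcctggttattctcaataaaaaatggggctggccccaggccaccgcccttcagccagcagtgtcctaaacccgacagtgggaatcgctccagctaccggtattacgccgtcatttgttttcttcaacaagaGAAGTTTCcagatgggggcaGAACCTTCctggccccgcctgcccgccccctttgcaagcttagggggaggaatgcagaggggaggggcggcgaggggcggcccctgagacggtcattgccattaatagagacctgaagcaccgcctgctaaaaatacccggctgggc
Hspa1a (chr17:34972107-34972406, − strand): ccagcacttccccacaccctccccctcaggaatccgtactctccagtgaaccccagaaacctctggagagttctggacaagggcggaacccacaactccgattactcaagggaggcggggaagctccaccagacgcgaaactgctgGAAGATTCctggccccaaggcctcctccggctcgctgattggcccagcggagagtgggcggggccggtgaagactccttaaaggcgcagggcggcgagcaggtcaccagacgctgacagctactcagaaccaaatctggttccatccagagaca
Hspa1b (chr17:34959189-34959488, − strand): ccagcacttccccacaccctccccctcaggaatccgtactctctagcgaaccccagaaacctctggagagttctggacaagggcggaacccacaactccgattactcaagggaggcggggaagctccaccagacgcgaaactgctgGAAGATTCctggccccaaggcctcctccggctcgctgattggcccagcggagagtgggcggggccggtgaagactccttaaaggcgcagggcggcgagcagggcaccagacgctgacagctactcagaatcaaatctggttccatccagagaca
Hspe1 (chr1:55087898-55088197, + strand): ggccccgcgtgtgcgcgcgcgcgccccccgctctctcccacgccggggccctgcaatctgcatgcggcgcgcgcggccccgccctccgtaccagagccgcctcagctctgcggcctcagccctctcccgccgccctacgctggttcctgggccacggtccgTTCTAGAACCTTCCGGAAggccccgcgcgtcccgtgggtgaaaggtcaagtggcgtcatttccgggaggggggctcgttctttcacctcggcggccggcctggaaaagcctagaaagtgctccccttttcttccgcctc
Hsph1 (chr5:149636266-149636565, − strand): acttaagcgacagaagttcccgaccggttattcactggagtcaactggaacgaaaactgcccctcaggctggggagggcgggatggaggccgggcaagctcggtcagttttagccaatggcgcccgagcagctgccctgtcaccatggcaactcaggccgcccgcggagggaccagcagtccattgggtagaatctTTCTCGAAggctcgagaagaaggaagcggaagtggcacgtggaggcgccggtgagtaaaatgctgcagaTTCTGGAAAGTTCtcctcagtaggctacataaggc
Hspb1 held 2 pairs of the GAANNTTC kind, GAAGTTTC at −117 and GAACCTTC at −97 from the start. Hspa1a and Hspa1b each held 1 pair, GAAGATTC at −104, and their windows were identical at 98.7% of positions. They differed by C44T, T47C, T249G and C276T, counted from the 5′ end of the window with the Hspa1a base first. The Hspe1 window shared 285 bases with 1 of the 2 windows of Hspd1, and both hold the same run of 4 alternating units, which makes 2 overlapping rows of 3. Hsph1, in the window shown, held a pair at −54 and a row of 3 at 16 bases after the start. Counted from its other annotated start, the same matches lay at −33 and at 37 bases after it. No match in a window says only that these letters are not there.

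Of the 10 heat shock transcripts, 1 passed the test. Hspb1 fell 2.48-fold in the knockdown line, and the other 9 did not pass, with fitted changes from −0.041 to 0.36 on the log2 scale. The share of members called was 1 of 10, against 47.9% of all genes tested, and the median log2 fold change was −0.0096 for the members and 0.0017 for all tested genes. Without scrambled replicate 2, 3 of 10 were called (Hspb1, Hspa8 and Hsp90ab1, all lower), against 50.6% of all genes, and the medians were −0.035 and 0.0029. The 10 genes together took 0.807% to 0.864% of all counts in the scrambled libraries and 0.836% to 0.854% in the knockdown libraries. The lowest of these shares was that of scrambled replicate 2, and the ranges of the groups overlapped.

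**Figure D1:**
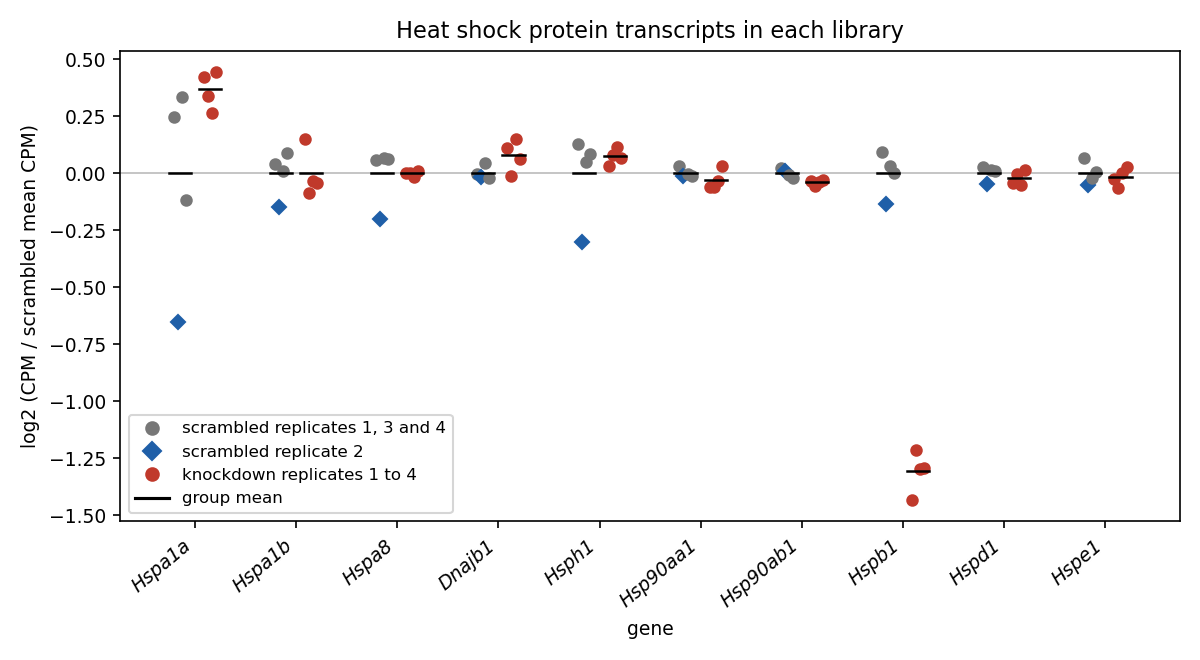
Level of each heat shock transcript in each library as log2 of CPM over the scrambled mean, with points for the 4 scrambled and 4 knockdown libraries, a mark for scrambled replicate 2 and lines for group means. Hspb1 is the transcript whose knockdown points lie far below the scrambled points, and scrambled replicate 2 lies below its group for Hspa1a, Hsph1 and Hspa8.

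Within the scrambled line the abundance per length, in CPM per kb of annotated exon, covered a wide range. Hsp90ab1 was highest at 1272 ± 16.5 CPM per kb, followed by Hspa8 at 545 ± 47.4, Hspd1 at 362 ± 8.22, Hsp90aa1 at 249 ± 3.60 and Hspe1 at 96.3 ± 3.30 CPM per kb. The constitutive HSP90 and HSP70 thus led the order, and the heat-inducible HSP70 genes ended it. Hspb1 was at 26.7 ± 1.77, Hsph1 at 24.0 ± 3.09, Dnajb1 at 16.2 ± 0.352, Hspa1b at 4.10 ± 0.286 and Hspa1a at 0.746 ± 0.210 CPM per kb. Neighbours in this order did not overlap over the 4 libraries, except Hspb1 and Hsph1, whose ranges did. The order can depend on the length used, since the annotated exons of Hsph1 cover 7266 bases and its longest coding transcript 3802. The place of Hspa1a below Hspa1b also depends on how reads that fit both were counted. In the knockdown line Hspb1 was at 10.8 CPM per kb, below Hsph1 at 25.3 and Dnajb1 at 17.1 CPM per kb. By mean CPM over all 8 libraries, Hsp90ab1 ranked 4 among the 24421 rows of the table and Hspa8 ranked 15, whereas Hspb1 ranked 7609 and Hspa1a 10509.

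Hspb1 (HSP25, the mouse counterpart of human HSP27) is an ATP-independent small heat shock protein that forms large oligomers, holds unfolded proteins and binds actin filaments. The gene lies on chromosome 5, 135887919 to 135889563, on the + strand of GRCm38. Scaled counts in scrambled replicates 1 to 4 were 29.4, 25.0, 28.1 and 27.5 CPM, and in knockdown replicates 1 to 4 they were 10.2, 11.9, 11.2 and 11.2 CPM. The highest knockdown library was far below the lowest scrambled one, and the raw counts behind them were 497 to 656 against 199 to 246. The mean fell from 27.5 ± 1.82 to 11.1 ± 0.691 CPM, a log2 fold change of −1.31 with SE 0.0689 and a 95% interval of −1.45 to −1.17 (edgeR adjusted p = 5.12e-13). In percent the change was −59.6%, with an interval of −63.4% to −55.4%. Without scrambled replicate 2, in which it was lowest of the scrambled libraries, the log2 fold change was −1.35. Among the tested genes, 97 (0.822%) were called lower with a fold change at least as large. The 3′ UTR of Hspb1, 445 bases in the longest annotated form, held no core match to the microRNA. Of the 59-base stretches of its longest coding transcript, 50.1% also occur in Hsp25-ps1, a processed copy. The exact level of Hspb1 thus depends on how the authors' counting treated reads that fit both.

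**Figure D2:**
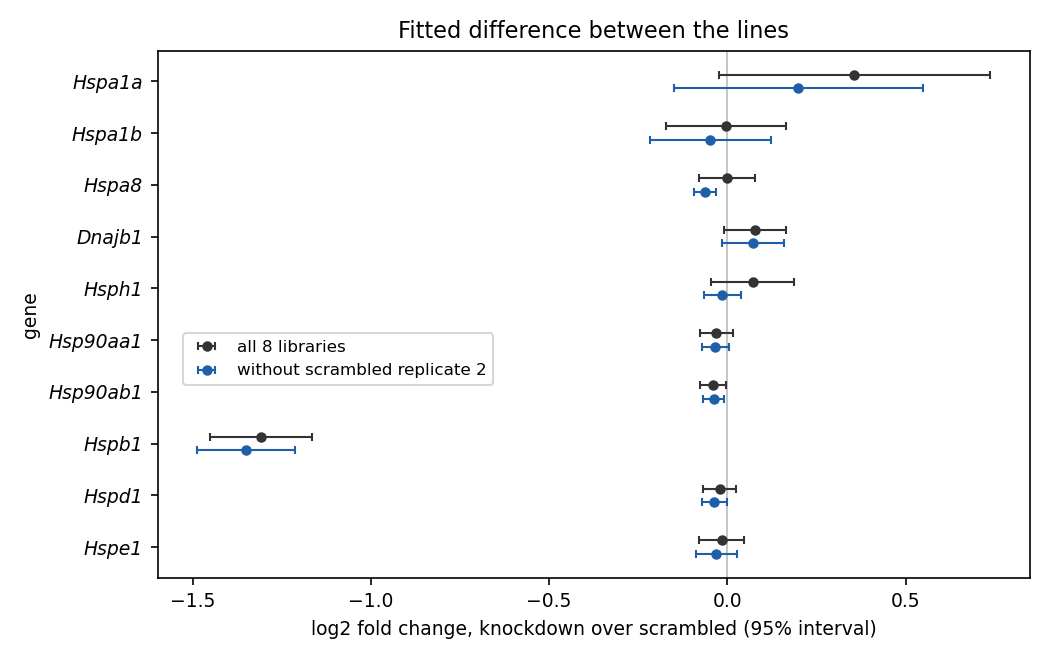
Fitted log2 fold change of knockdown over scrambled for each of the 10 genes, with bars for the 95% interval, from all 8 libraries and from the 7 without scrambled replicate 2. Hspb1 lies at −1.31 with both intervals far below 0, and Hspa8 moves from −0.0020 to −0.063 when that library is left out.

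Most genes around Hspb1 were not lower in the knockdown line. Of the 5 nearest tested genes on each side, which span 135406531 to 136111860 on chromosome 5, 4 were called higher, 2 lower and 4 neither, with a median log2 fold change of 0.11. The 2 next to it, Mdh2 (mitochondrial malate dehydrogenase) and Ywhag (a 14-3-3 protein), rose by 0.13 and 0.19 on the log2 scale (edgeR adjusted p = 0.000116 and 3.83e-07). Por, cytochrome P450 reductase, fell by 0.14 (edgeR adjusted p = 0.00103) and Upk3bl, an uroplakin-like protein, by 0.74 (edgeR adjusted p = 0.0109). The median over the 741 tested genes of chromosome 5 was 0.14. None of the 10 neighbours had a decrease as large as that of Hspb1.

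**Figure D3:**
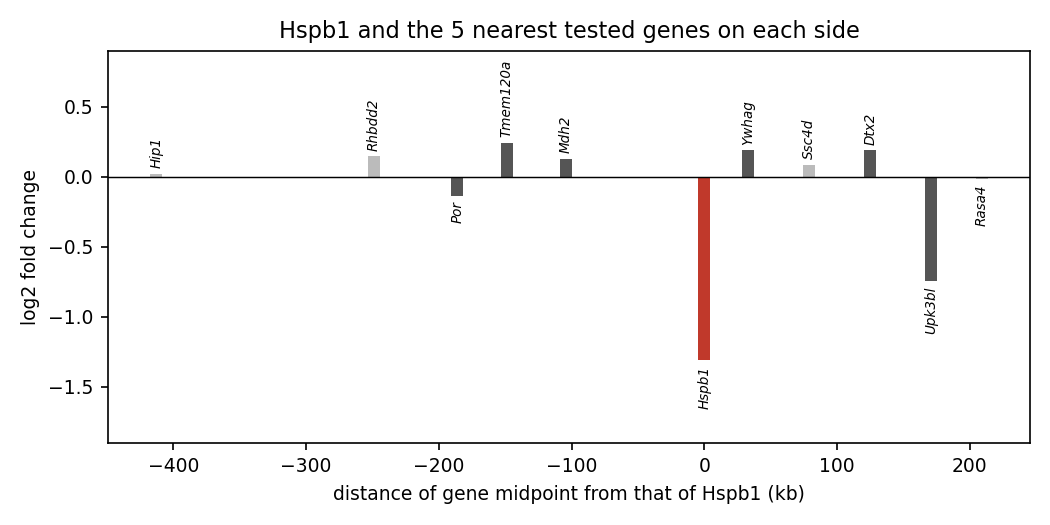
Log2 fold change of Hspb1 and of the 5 nearest tested genes on each side against the distance in kb between gene midpoints. Hspb1 lies at −1.31 and its neighbours between −0.74 and 0.24.

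Among the HSP70 chaperones, neither the constitutive nor the inducible genes passed the test with all 8 libraries. Hspa8 (HSC70), the constitutive form that folds new proteins and uncoats clathrin vesicles, lies on chromosome 9, 40800984 to 40810087, on the + strand. Its levels were 2438, 2037, 2452 and 2444 CPM in the scrambled replicates and 2343, 2341, 2318 and 2357 CPM in the knockdown replicates. Scrambled replicate 2 was below every other library, while the other 3 scrambled libraries were above every knockdown library. With all libraries the means were 2343 ± 204 and 2340 ± 16.1 CPM, and the log2 fold change was −0.0020 (95% interval −0.080 to 0.076, edgeR adjusted p = 0.970). Without scrambled replicate 2 the scrambled mean was 2445 ± 6.82 CPM (n = 3), and Hspa8 was called lower by 4.26% (log2 fold change −0.063, interval −0.093 to −0.033, edgeR adjusted p = 0.000365). That library had been singled out because Hspa8 deviates in it, so the smaller spread and this call follow in part from that choice, and they are a description rather than independent support for a decrease.

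Hspa1a and Hspa1b encode the stress-inducible HSP70 from a pair of neighbouring genes on chromosome 17 (34969190 to 34972156 and 34956436 to 34959238, both on the − strand). Hspa1a was at 2.62, 1.41, 2.79 and 2.04 CPM in the scrambled replicates and 2.97, 2.80, 2.65 and 3.01 CPM in the knockdown replicates. The scrambled libraries were more spread and the groups overlapped. The means were 2.21 ± 0.624 and 2.86 ± 0.163 CPM (log2 fold change 0.36, interval −0.02 to 0.74, edgeR adjusted p = 0.115). These levels rest on 28 to 66 counts per library, so a change of 1.2-fold was within the interval. Leaving out scrambled replicate 3, where 44.0% of all tested genes were called, gave an adjusted p of 0.0461, and leaving out scrambled replicate 2 gave 0.355 (edgeR). Hspa1b was at 11.5 ± 0.802 and 11.5 ± 0.853 CPM, a log2 fold change of −0.0033 with an interval of −0.17 to 0.16 (edgeR adjusted p = 0.977).

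Of the 59-base stretches of Hspa1b, 59.9% also occur in Hspa1a, so reads of one can be counted for the other, and Hspa1a shares 564 exon bases with Gm20481 on the opposite strand. The sum of the 2 genes is less open to such splitting. It was 14.5, 11.8, 14.4 and 14.3 CPM in the scrambled replicates and 15.7, 13.6, 13.9 and 14.2 CPM in the knockdown replicates. The groups overlapped, and a log2 difference of 0.068 gave p = 0.571 in an exact permutation test (two-sided, 70 arrangements of the libraries, lowest possible p 0.0286; 0.857 adjusted over 4 such tests). Without scrambled replicate 2, the lowest library, the difference was −0.0040 (exact permutation p = 0.914). Counted as 1 row in edgeR, the pair had a log2 fold change of 0.064 (interval −0.099 to 0.23, adjusted p = 0.531). As a ratio to Hspa8 within each library, the inducible pair stood at 0.00585 ± 0.0000616 in the scrambled and 0.00613 ± 0.000392 in the knockdown line, and the groups overlapped (exact two-sided permutation p = 0.114, adjusted 0.457). Knockdown replicate 1 was highest at 0.00670, against 0.00582 to 0.00601 in the other knockdown libraries, and without it the log2 difference was 0.021, against 0.065 with all libraries. Scrambled replicate 2, lowest for both parts of this ratio, gave 0.00578 against 0.00584 to 0.00593 in the other scrambled libraries.

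The partners of HSP70 did not pass the test either. Dnajb1 (HSP40), the J-domain protein that loads clients onto HSP70 (chromosome 8, 83608193 to 83612653, + strand), was at 51.8, 51.4, 53.7 and 51.3 CPM in the scrambled and 56.2, 51.5, 57.8 and 54.2 CPM in the knockdown replicates. The groups overlapped at 1 knockdown library. The log2 fold change was 0.077 (interval −0.0098 to 0.16, edgeR adjusted p = 0.136), and with library totals alone as the scaling it was 0.10 and called (edgeR adjusted p = 0.0474), as were 48.4% of all tested genes. The 10 tested genes nearest to Dnajb1 had a median log2 fold change of 0.26, with 9 called higher and none lower, and the median over the 628 tested genes of chromosome 8 was 0.21. Hsph1 (HSP105), the nucleotide exchange factor that also disaggregates proteins with HSP70 (chromosome 5, 149614287 to 149636376, − strand), was at 191, 142, 181 and 185 CPM in the scrambled and 179, 185, 189 and 183 CPM in the knockdown replicates. Scrambled replicate 2 was again below every other library. The log2 fold change was 0.072 (interval −0.044 to 0.19, edgeR adjusted p = 0.306) with it and −0.014 (interval −0.067 to 0.038) without it.

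Neither HSP90 gene passed the test with all libraries. Hsp90ab1 (HSP90 beta), the constitutive form (chromosome 17, 45567775 to 45573271, − strand), was at 3871, 3835, 3797 and 3755 CPM in the scrambled and 3728, 3663, 3710 and 3732 CPM in the knockdown replicates. Every scrambled library was above every knockdown library, with a gap of 3732 to 3755 CPM between the groups. Groups that do not overlap were found for 42.2% of all tested genes and for 2 of the 10 members, this one and Hspb1. Without scrambled replicate 2 they were found for 49.6% of tested genes and for 3 members, Hspa8 added. The means were 3815 ± 49.6 and 3708 ± 31.8 CPM, and the difference of −2.79% (log2 fold change −0.041, interval −0.077 to −0.0049) missed the threshold (edgeR adjusted p = 0.0564). It passed in edgeR without scrambled replicate 2 (adjusted p = 0.0275) and without scrambled replicate 4 (adjusted p = 0.0483, 44.9% of genes called). With all libraries it passed in DESeq2 (adjusted p = 0.0430, 38.1% of genes called) and in limma-voom (adjusted p = 0.0133, 47.8% of genes called). With library totals alone its log2 fold change was −0.015 (edgeR adjusted p = 0.501).

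Hsp90aa1 (HSP90 alpha), the stress-inducible form (chromosome 12, 110690605 to 110702728, − strand), was at 1000.1, 971, 977 and 969 CPM in the scrambled and 938, 939, 957 and 1001 CPM in the knockdown replicates. Knockdown replicate 4 was the highest of all 8 libraries, so the groups overlapped. The log2 fold change was −0.031 (interval −0.078 to 0.016, edgeR adjusted p = 0.278), in the gene with 1 of the 3 seed matches shown above. The ratio of Hsp90aa1 to Hsp90ab1 was 0.257 ± 0.00236 in the scrambled and 0.259 ± 0.00699 in the knockdown line (exact two-sided permutation p = 0.829, adjusted 0.857). The balance of inducible to constitutive HSP90 thus differed by less than the spread between libraries.

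Hspd1 (HSP60) and Hspe1 (HSP10) are the barrel and the lid of the chaperonin of the mitochondrial matrix. They are transcribed in opposite directions from a shared promoter on chromosome 1 (55077835 to 55088243, − strand, and 55088132 to 55091307, + strand), with 112 shared exon bases. Hspd1 was at 975, 926, 965 and 962 CPM in the scrambled and 928, 953, 924 and 966 CPM in the knockdown replicates. Hspe1 was at 148, 137, 140 and 143 CPM and at 139, 136, 142 and 145 CPM. The groups overlapped for both genes, with log2 fold changes of −0.021 (interval −0.067 to 0.025, edgeR adjusted p = 0.448) and −0.016 (interval −0.080 to 0.048, edgeR adjusted p = 0.698). The ratio of Hspd1 to Hspe1 was 6.74 ± 0.133 and 6.72 ± 0.218 (exact two-sided permutation p = 0.857, the same after adjustment).

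Scrambled replicate 2 had low heat shock transcripts. Against the mean of the other 3 scrambled libraries, Hspa1a was at −43.2%, Hsph1 at −23.8%, Hspa8 at −16.7%, Hspa1b at −12.7% and Hspb1 at −11.7%, whereas Hspe1 was at −4.62%, Hspd1 at −4.33%, Dnajb1 at −1.65%, Hsp90aa1 at −1.08% and Hsp90ab1 at 0.725%. The larger deviations were thus in the HSP70 genes, Hsph1 and Hspb1, and the smaller ones in the HSP90 genes, Dnajb1 and the chaperonin. In 7 of the 10 members this library was below all 3 others, as it was in 31.6% of all tested genes and in 40 of 106 other chaperone genes. Of all tested genes, 7.56% were as far below the other scrambled libraries as Hspa8 and 4.05% as far as Hsph1. The median log2 deviation was −0.12 for the members, −0.15 for 15 chaperones of the endoplasmic reticulum (ER), of which 14 were below the mean of the others, and −0.00089 for all tested genes. For 14 genes of the cytosolic chaperonin TRiC and prefoldin it was 0.015. This description was made after the library was known to stand apart, and Hspa8, whose own value singled it out, is counted among the members. The 7 of 10, the members' median and the share of genes as low as Hspa8 thus restate that choice in part. The part of this library in the comparison of the lines is given by the values with and without it. Krt8 and Krt18 were higher in this library, at 3568 and 2928 CPM against at most 3155 and 2636 CPM in the other scrambled libraries. Of the other ductal markers, Krt19, Krt7 and Epcam were at 6.42%, 3.39% and 53.1% against the mean of those libraries, and Cdh1 and Muc1 at −4.21% and −5.35%.

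**Figure D4:**
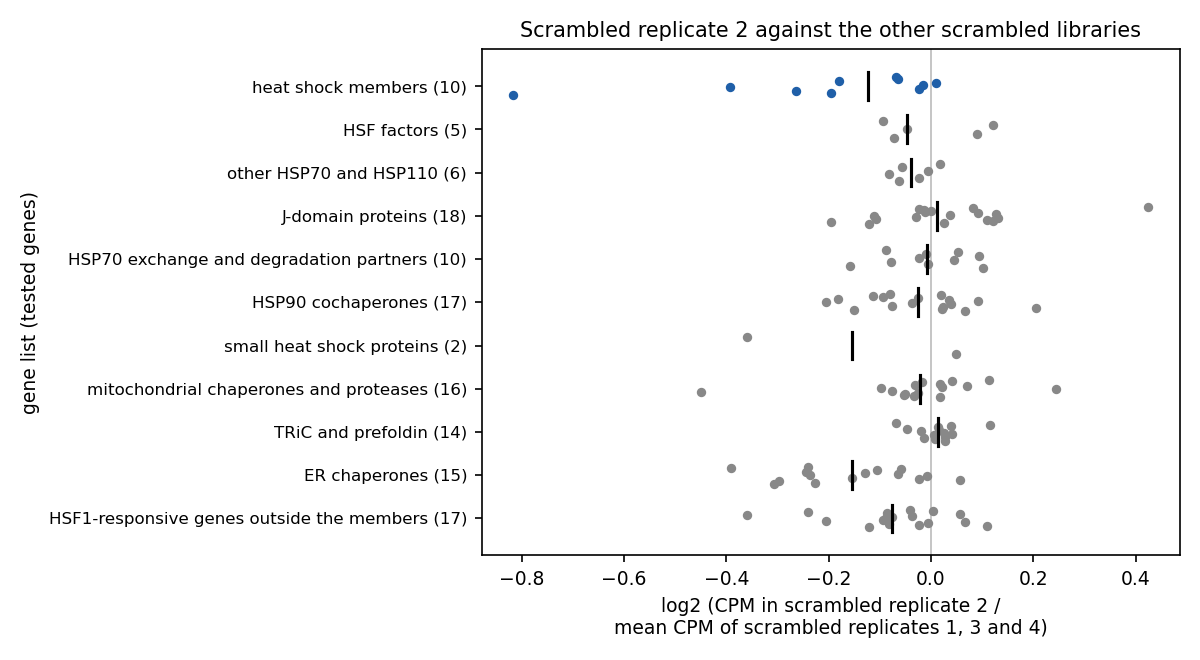
Log2 of the CPM in scrambled replicate 2 over the mean of scrambled replicates 1, 3 and 4, with a point for each tested gene of the 10 heat shock genes and of the companion lists and a line for each list's median. The median is −0.12 for the heat shock genes, −0.15 for ER chaperones and 0.015 for TRiC and prefoldin.

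The 5 genes whose pattern over the 8 libraries was nearest to that of Hspa8 shared its low value in scrambled replicate 2. Nearness was the root mean square difference between centred log2 CPM, over 9875 tested genes that averaged 5 CPM or more. The largest deviation of Hspa8 was in that library, so the shared low value follows from how these genes were picked. Ubr4 (a ubiquitin ligase of the N-degron pathway) came first at 0.0181, then Pdia4 (an ER disulfide isomerase) at 0.0202, Itga3 (integrin alpha 3) at 0.0236, Clic6 (a chloride channel protein) at 0.0243 and Lamb1 (a laminin chain) at 0.0251. Among the members the nearest were Hspd1 at 0.0642 and Hsph1 at 0.0652, behind 383 and 407 other genes. Many genes outside the set thus followed Hspa8 more closely than any other member did.

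Genes that work with the members were taken as lists of 120 further symbols, of which 106 were tested. Of these, 15 were called higher, 41 lower and 50 neither (52.8% called), with a median log2 fold change of −0.040. Among all tested genes 47.9% were called, 23.8% higher and 24.1% lower, so the share called was near the background. With upper-quartile scaling the split was 21 higher and 36 lower, where of all tested genes 48.0% were called, 3188 higher and 2478 lower (2804 and 2841 with TMM). With library totals alone it was 23 and 35, where of all tested genes 28.3% were called higher and 20.1% lower. With these scalings both the list and the whole table thus gained higher calls and lost lower ones. The list still held more lower than higher calls, whereas the whole table held more higher ones. Without scrambled replicate 2 the split was 18 and 48, where 25.3% of all tested genes were called higher and 25.3% lower. In a test against a change of 1.2-fold, 2 of the 106 passed (Dnaja4 and Hsf4), as did Hspb1 among the members and 1107 of all tested genes (9.38%). The other called changes were not shown to exceed 1.2-fold. The share called in each of the smaller lists is given below as a count and a percentage, to be read against the same 47.9%, 23.8% higher and 24.1% lower.

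Of 5 tested heat shock factors and regulators, 1 was called higher and 2 lower (60.0% called, against 47.9% of all genes). Hsf1, the main activator of the heat shock response, fell from 69.2 ± 1.97 to 62.9 ± 0.947 CPM, with all knockdown libraries below all scrambled ones (log2 fold change −0.14, edgeR adjusted p = 0.00316). Hsbp1, a small protein that binds HSF1 trimers and is described as a negative regulator, rose from 57.6 ± 3.45 to 72.1 ± 1.03 CPM (0.32, edgeR adjusted p = 8.94e-07). Its gene lies on chromosome 8, where the median log2 fold change over the 628 tested genes was 0.21. Hsf2, which can form trimers with HSF1, was at 29.6 ± 2.32 and 31.5 ± 3.18 CPM and was not called (0.093, edgeR adjusted p = 0.264). Hsf4, known from the lens, fell from 1.75 ± 0.166 to 0.805 ± 0.110 CPM (−1.11, edgeR adjusted p = 0.000235), and was singled out after its value was seen. In 17 tested genes known to respond to HSF1 outside the members, 1 was called higher, 5 lower and 11 neither (35.3% called), with a median of 0.0026. Many of these genes, such as Hspa4l, Bag3 and Fkbp4, also stand in other lists here, so the counts of the lists overlap. Hspa4l, an HSP110 relative, rose from 124 ± 5.11 to 141 ± 1.89 CPM (0.19, edgeR adjusted p = 2.86e-05), and Fkbp4, an immunophilin that brings steroid receptors to HSP90, fell from 722 ± 20.02 to 623 ± 5.56 CPM (−0.21, edgeR adjusted p = 5.87e-08).

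The J-domain proteins were split evenly, with 6 of 18 called higher, 6 lower and 6 neither (66.7% called, against 47.9% of all genes). Dnaja4, a cytosolic J-domain protein, fell 2.63-fold, from 14.96 ± 1.36 to 5.67 ± 0.550 CPM (log2 fold change −1.40, edgeR adjusted p = 4.09e-11), a size near that of Hspb1. The median over the 655 tested genes of its chromosome 9 was −0.085. Dnajc14 rose from 71.4 ± 1.2 to 82.7 ± 2.24 CPM (0.21, edgeR adjusted p = 2.06e-05). Of 6 other HSP70 and HSP110 genes, 1 was called higher and 4 lower (83.3% called), with Hspa9 (mortalin, the HSP70 of mitochondria) from 1064 ± 8.08 to 952 ± 13.8 CPM (−0.16, edgeR adjusted p = 5.82e-07). Of 10 exchange and degradation partners of HSP70, 1 was called higher and 5 lower (60.0% called). They include Bag3, which links HSP70 and small heat shock proteins to selective autophagy and fell from 64.4 ± 2.22 to 53.7 ± 2.01 CPM (−0.26, edgeR adjusted p = 1.17e-05). Bag4 rose from 43.2 ± 1.54 to 48.5 ± 1.08 CPM (0.17, edgeR adjusted p = 0.00231), less than the median of 0.21 for the tested genes of its chromosome 8.

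Of 17 HSP90 cochaperones, 1 was called higher, 6 lower and 10 neither (41.2% called, against 47.9% of all genes). The rise was in Ahsa2, a homologue of the ATPase activator Aha1, from 63.6 ± 3.29 to 70.1 ± 1.33 CPM (0.14, edgeR adjusted p = 0.00541), and Fkbp5, a cochaperone induced by glucocorticoids, fell from 185 ± 3.08 to 153 ± 3.05 CPM (−0.27, edgeR adjusted p = 2.41e-08). Of 8 other small heat shock proteins 2 were tested, and Hspb6 fell from 26.6 ± 1.38 to 23.4 ± 0.897 CPM (−0.19, edgeR adjusted p = 0.0095), a smaller change than that of Hspb1. Of 16 mitochondrial chaperones and proteases, 2 were called higher and 8 lower (62.5% called), with a median of −0.074. In the inner-membrane AAA proteases, which form joint complexes, Spg7 rose from 71.7 ± 3.06 to 86.0 ± 3.86 CPM (0.26, edgeR adjusted p = 8.79e-06) and Afg3l2 fell from 146 ± 2.97 to 122 ± 0.908 CPM (−0.25, edgeR adjusted p = 9.10e-08). Spg7 lies on chromosome 8, whose tested genes had a median of 0.21.

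Of 14 genes of TRiC, the folding chamber for actin and tubulin, and prefoldin, 1 was called higher, 4 lower and 9 neither (35.7% called, against 47.9% of all genes). Cct7 fell from 757 ± 11.7 to 649 ± 3.72 CPM (−0.22, edgeR adjusted p = 8.42e-09) and Cct6a rose from 506 ± 9.37 to 538 ± 9.39 CPM (0.088, edgeR adjusted p = 0.00243), so 2 subunits of the same complex moved in opposite directions, as they did under each scaling run. The rise of Cct6a was below the median of 0.14 over the 741 tested genes of its chromosome 5. Of 15 ER chaperones, 2 were called higher and 5 lower with all libraries (46.7% called). Without scrambled replicate 2 the counts were 2 and 11, where 25.3% of all tested genes were called higher and 25.3% lower. That library was below the mean of the other scrambled libraries in 14 of the 15, so the added lower calls follow in part from leaving it out. Dnajc10, a J-domain disulfide reductase, fell from 334 ± 7.33 to 292 ± 1.46 CPM (−0.19, edgeR adjusted p = 4.54e-07). Calr, the lectin chaperone calreticulin, rose from 718 ± 58.0 to 794 ± 9.19 CPM (0.14, edgeR adjusted p = 0.00255), and by 0.089 without scrambled replicate 2 (edgeR adjusted p = 5.01e-05). Its rise with all libraries was below the median of 0.21 for the tested genes of its chromosome 8.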

How the data were processed

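Poly(A)-selected RNA of 8 libraries of KPCY cells was read as paired ends of 59 bases with a stranded Illumina kit, with a minimum RNA integrity number of 7, per the labels' protocols. The authors deposited raw read counts per gene symbol. Per the submitters' processing notes, the tools were STAR, Bowtie, bcl2fastq 2.20, R 4.2.1 and DESeq2 1.36.0, on mm10. Which program counted reads, on which annotation and strand, is not given in the sources used here, so reads of overlapping genes on opposite strands and of near-identical copies cannot be assigned with certainty.

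The main test was edgeR 4.0.16 under R 4.3.3. Genes passed filterByExpr (minimum count 10, total 15), libraries were scaled by TMM, and glmQLFit and glmQLFTest took the group as the single term, with p-values adjusted by Benjamini-Hochberg over all tested genes. Intervals cover 95%. The levels and ratios of gene pairs were compared by exact permutation tests in scipy 1.17.1. Alternatives were other scalings (DESeq2 size factors, upper quartile, library totals), filters, DESeq2 1.42.0, voom of limma 3.58.1, a block on the replicate number, the stricter adjusted p of 0.01, a 1.2-fold threshold in the test, the summed Hspa1 genes and each library left out. The edgeR test was tested on simulated counts. Positions and 3′ UTRs are from GENCODE M21 on GRCm38, 1-based, and promoter and microRNA sequences are from RefSeq. The share of 59-base stretches was taken over the longest annotated protein-coding transcript of each member. A stretch counts as shared when another gene's transcript holds it on either strand.

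The members and the lists were chosen with earlier results of these data known. Named are all members, Hsf1, Hsf2 and 3 keratins whatever their values, the called gene with the smallest adjusted p in each direction from each companion list where it averaged 5 CPM or more, and the 5 genes nearest to Hspa8. Neighbouring genes were taken by position.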

Additional observations from a re-analysis of the deposited data

Results flagged for a closer look

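Groups of 4 libraries were examined for a library whose gap to the nearest other, as a share of the group's range, passed Dixon's 95% critical value, in 82 groups of values, of which chance flags about 1 in 20. There were 9 such groups. Hspa8 was at 2037 CPM in scrambled replicate 2, below the other scrambled libraries, but this library was singled out for its Hspa8 value, so its place here restates that choice. The summed level of Hspa1a and Hspa1b was at 11.8 CPM in the same library. Ubr4 at 407 CPM, Itga3 at 1375 CPM, Clic6 at 82.5 CPM and Lamb1 at 238 CPM were low there too, but these genes were picked for their likeness to Hspa8 over the same libraries and are not separate evidence either. With these 5 set aside, the 9 cannot be read against the share that chance flags. Krt8 at 3568 CPM and Krt18 at 2928 CPM were high there. Dnajc14 was at 79.4 CPM in knockdown replicate 1, below the other knockdown libraries, which were at 83.5 to 84.3 CPM.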

How the results depend on the processing

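Hspb1 was called lower under all 19 alternatives of the fit, with log2 fold changes from −1.35 to −1.27, and Hspa1a (called without scrambled replicate 3), Hsp90ab1, Dnajb1 and Hspa8 were called under some. Of the 10 members, 2 were called with library totals alone (Dnajb1 added), 2 with DESeq2 and 2 with limma-voom (Hsp90ab1 added in each). Leaving out single libraries gave 1 to 3 called members, with 3 without scrambled replicate 2 and 2 without scrambled replicate 3 or 4. Of all tested genes, 43.1% to 50.6% were called in these fits. The 56 called companion genes became 2 in the test against a fold of 1.2, which 9.38% of all tested genes passed. With single libraries left out the companion count was 50 to 66, against the same 43.1% to 50.6%. Ubr4 had a log2 fold change of 0.013 (edgeR adjusted p = 0.816), and between −0.048 and 0.041 with single libraries left out, the lower value without scrambled replicate 2 (edgeR adjusted p = 0.0391). The cause was not tested. The 4 permutation tests passed the threshold under no alternative, where leaving out a library cannot give a p under 0.0571 and the block none under 0.125.

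With the replicate block, 1 member, 56 companion genes and 5533 of 11797 genes were called, and the log2 difference of the summed Hspa1 genes was 0.068. The libraries share only a number, since deviations of same-numbered libraries correlated at −0.035 to 0.020. Counts of 28 to 66 limit Hspa1a, for which changes from −1.67% to 66.7% were within the interval. For Hspa8 the interval was −5.42% to 5.44%.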

Other observations

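Around the other members, the 10 nearest tested genes had median log2 fold changes of −0.25 for Hspa8, 0.14 for Hsp90aa1, 0.073 for Hsph1, −0.056 for Hsp90ab1, 0.016 for Hspd1, 0.013 for Hspe1, 0.044 for Hspa1a and 0.085 for Hspa1b. Hspa8 lay among genes of which 6 were called lower and 1 higher, from −1.52 to 0.32 on the log2 scale, and itself had −0.0020. Of the 59-base stretches, 72.8% of Hspa8, 56.4% of Hsp90aa1, 40.4% of Hspd1 and 38.1% of Hspe1 also occur in transcripts of other genes, against 2.72% of Hsp90ab1 and none of Dnajb1 and Hsph1. The exons of Hspa8 also hold Snord14c, Snord14d and Snord14e, small nucleolar RNAs on the same strand, at 86, 86 and 90 shared bases.

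The ER chaperones Hspa5 (BiP) and Hsp90b1 (GRP94), relatives of the members chosen here after their values were seen, had 739 and 939 CPM in scrambled replicate 2. The other scrambled libraries were at 894 to 931 CPM and 1089 to 1106 CPM. Neither was called with all libraries (edgeR adjusted p = 0.0790 and 0.0712), and both were called lower without that library, at log2 fold changes of −0.17 and −0.13 (edgeR adjusted p = 9.60e-12 and 6.02e-09). Without it 50.6% of all tested genes were called, 25.3% lower. These calls follow in part from leaving out a library in which both genes were low.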
